A study of Mus musculus with 9 samples.

Results

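Described here are 10 genes of the primitive streak and the early mesoderm, followed in mouse embryonic stem cells (mESCs) with and without the Polycomb protein RING1B. They are the ligand gene Nodal, its inhibitors Lefty1 and Lefty2, and the transcription factor genes T, Mixl1, Mesp1, Mesp2, Tbx6, Snai1 and Snai2. They were chosen by name and not by their values, though earlier results of these data were known. Each was found in the deposited table by its symbol or RefSeq accession. The 10 genes, of 21713 genes with a probe, had 11 of the 30170 tested probes, because Tbx6 had 2, and the brightest probe of a gene was used.

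The cells were E14Tg2a, a male mESC line of strain 129P2/OlaHsd, grown in all groups in GMEM with 10% fetal bovine serum and LIF, and each sample was hybridised to 1 single-colour array. The wild-type group (WT, 3 samples) was the parental line, the knockout group (KO, Ring1B-/-, 3 samples) had lost exon 3 of the RING1B gene Rnf2 from both alleles, leaving a transcript with a premature stop, and the I53A group (Ring1B I53A/I53A, 3 samples) carried an alanine for an isoleucine in both endogenous copies. RING1B is a core subunit of Polycomb repressive complex 1 (PRC1) and attaches ubiquitin to histone H2A, and the I53A protein enters PRC1 but is inactive as a ubiquitin ligase. The comparisons ask which of these genes respond to loss of the protein and which to loss of its enzymatic activity. The study calls the samples of a group biological replicates without saying that they were separate cultures, so that the p-values here cover the spread among these samples only, and that spread may be technical. The sources used here describe 1 mutant genotype per group and no independently derived lines for the arrays, so that a line and its mutation cannot be told apart. Groups and replicate numbers were taken from the sample titles, and a second label gives the number 1 to every KO sample.

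At gastrulation NODAL, a ligand of the TGF-beta family, acts through activin receptors and the co-receptors CRIPTO (gene Tdgf1) and CFC1, and SMAD proteins with FOXH1 then switch on target genes that include those of the secreted inhibitors LEFTY1 and LEFTY2. Together with WNT signals it induces brachyury (T) and MIXL1 in the primitive streak, from which mesoderm leaves by an epithelial to mesenchymal transition in which SNAI1 and SNAI2 repress E-cadherin. MESP1 and MESP2 are basic helix-loop-helix factors of the earliest mesoderm, MESP2 later patterning the somites, and the T-box factor TBX6 specifies paraxial mesoderm. In mESCs Nodal and the Lefty genes are known to be active, while many regulators of gastrulation are silent and bound by Polycomb complexes at CpG-rich promoters.

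The genes lie on 6 chromosomes (GRCm38, RefSeq). Mixl1, Lefty2 and Lefty1 lie within one stretch of chromosome 1 (chr1:180693043-180697034, chr1:180893108-180899107 and chr1:180935022-180938401), with 35914 bases between the Lefty genes and 196073 between Mixl1 and Lefty2. Mesp1 (chr7:79792241-79793590) and Mesp2 (chr7:79810727-79813431) lie 17136 bases apart, and Tbx6 is farther along the same chromosome (chr7:126781483-126785548). T (chr17:8434423-8442496), Nodal (chr10:61417972-61425338), Snai1 (chr2:167538195-167542814) and Snai2 (chr16:14705852-14709395) stand alone. Where in these genes each probe binds was not determined.

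A promoter window of 300 bases, from 250 before to 50 after the transcription start, was at hand for 6 of the 10 genes (RefSeq, GRCm38.p6). The windows of Snai1 and Mesp2, whose signal rose in KO cells as given further on, and of Mesp1, the neighbour of Mesp2 that stayed at background, are shown 5′ to 3′ on the strand of the gene, with each CG dinucleotide in capitals. They are chr2:167537945-167538244 on the plus strand for Snai1, chr7:79810477-79810776 on the plus strand for Mesp2 and chr7:79793541-79793840 on the minus strand for Mesp1.
Snai1: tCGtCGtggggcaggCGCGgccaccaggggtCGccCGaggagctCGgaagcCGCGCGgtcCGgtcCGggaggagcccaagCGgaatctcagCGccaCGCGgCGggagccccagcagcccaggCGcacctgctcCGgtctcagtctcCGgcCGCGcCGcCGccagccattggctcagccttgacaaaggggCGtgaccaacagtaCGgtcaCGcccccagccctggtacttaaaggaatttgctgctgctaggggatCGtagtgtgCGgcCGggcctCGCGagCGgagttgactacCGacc
Mesp2: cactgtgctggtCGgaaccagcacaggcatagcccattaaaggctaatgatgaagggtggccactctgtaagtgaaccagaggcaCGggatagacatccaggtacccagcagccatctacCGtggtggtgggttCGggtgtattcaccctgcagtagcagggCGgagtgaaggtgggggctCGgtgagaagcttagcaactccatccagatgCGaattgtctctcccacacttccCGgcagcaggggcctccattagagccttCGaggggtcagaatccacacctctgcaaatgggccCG
Mesp1: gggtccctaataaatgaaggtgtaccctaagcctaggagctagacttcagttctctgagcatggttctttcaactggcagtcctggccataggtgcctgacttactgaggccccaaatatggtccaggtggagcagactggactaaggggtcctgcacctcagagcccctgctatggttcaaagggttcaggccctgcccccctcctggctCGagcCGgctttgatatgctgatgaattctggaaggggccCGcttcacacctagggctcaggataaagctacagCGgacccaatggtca
The capitals show 34 CG dinucleotides in the Snai1 window, 10 in that of Mesp2 and 4 in that of Mesp1. The median over 32851 mouse windows of this length was 7, and 92.3% of them held fewer than Snai1, 56.5% fewer than Mesp2 and 31.4% fewer than Mesp1. T held 17, Tbx6 held 7 and Nodal held 5, so the 2 genes that rose were not alike in CG content.

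Motifs of factors named above were also looked for, on both strands. The E-box CANNTG, the core bound by MESP and SNAI proteins, occurred 2 times in the Mesp2 window, 2 times in Mesp1, 1 time in Snai1 and 3 times in T, and in 72.3% of all windows. The T-box half-site TCACACCT occurred only in Mesp1 among the 6 windows and in 1.28% of all windows. The FOXH1 motif AATNCACA occurred only in Mesp2 among the 6 and in 3.60% of all windows, and the TCF/LEF motif CTTTGAT only in Mesp1 among the 6 and in 3.73% of all. These matches describe the letters of the windows and not binding.

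The arrays were alike in quality, with 45.4% to 57.5% of the tested probes well above background on an array and a correlation of 0.954 to 0.980 between arrays of one group. Rnf2 had a log2 signal of 8.35 ± 0.109 (SD, n = 3) in WT, 7.78 ± 0.385 (SD) in KO and 8.79 ± 0.273 (SD) in I53A, with no call in any comparison, and the array probe was not placed relative to the deleted exon, so that it checks no label. Of 11 measured markers of embryonic stem cells, all 11 were above background on all 9 arrays. The 9 arrays lay on 2 slides, with WT 3, KO 1 and I53A 3 on slide 2 and the others on slide 1. Each group always sat in 1 column of a slide, so that an effect of the column cannot be told apart from one of the genotype.

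Values are log2 fluorescence signals after quantile normalisation, and differences between groups are log2 fold changes (log2FC) from limma. A gene was called at a Benjamini-Hochberg (BH) adjusted p under 0.05 over all tested probes and a change of more than 2-fold. Only 4 of the 10 genes, Nodal, Lefty1, Lefty2 and Mesp2, were well above background on all 9 arrays. Mesp1 and Mixl1 were at background on all 9. Snai2 was above background on 5 arrays, Snai1 on 3, and T and Tbx6 on 1, which was KO 1 for both. The signal of a probe depends on its own sequence, so levels are compared between groups and not between genes.

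**Figure D1:**
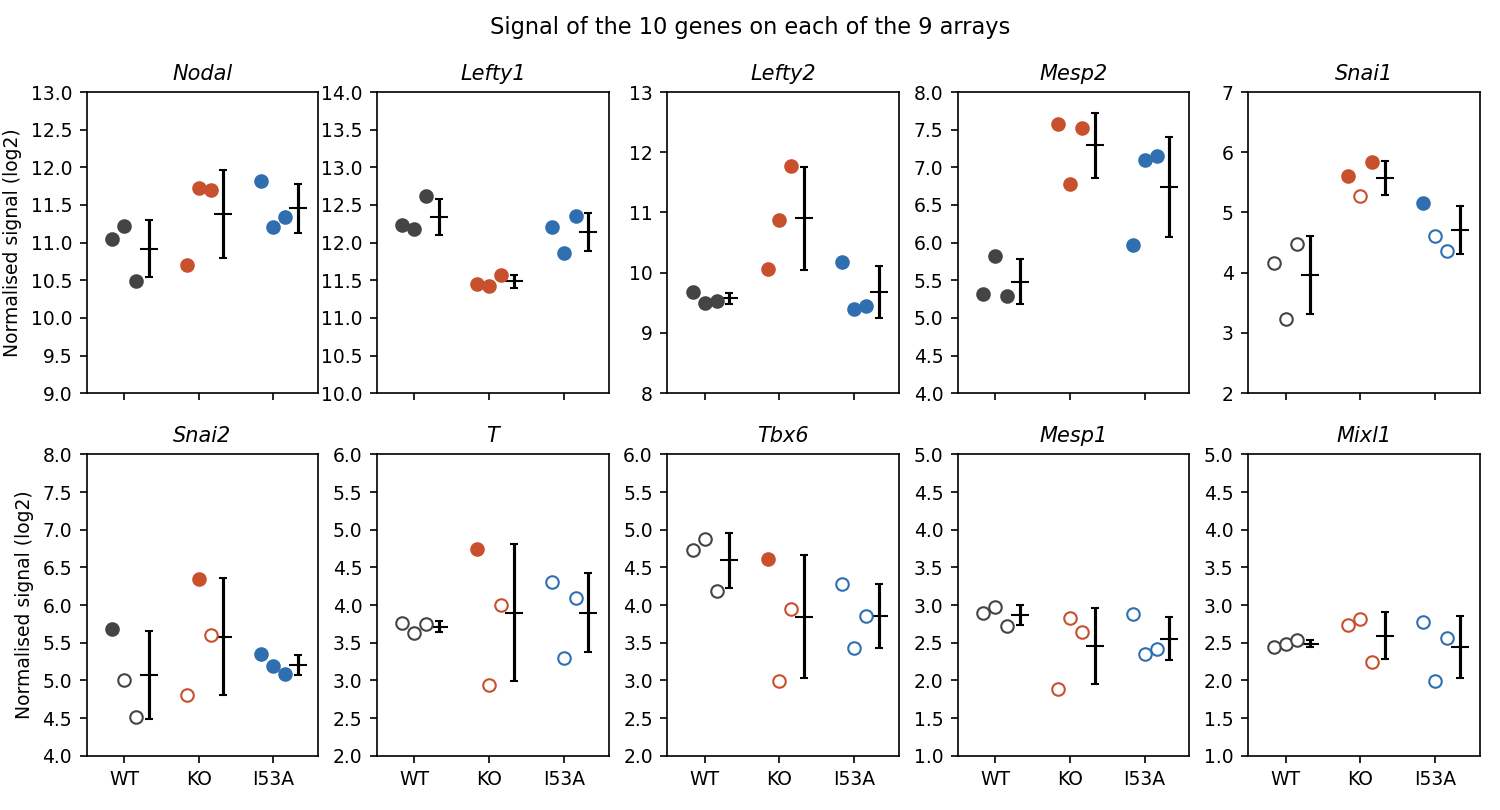
Normalised log2 signal (y axis) of the brightest probe of each of the 10 genes on each array, by group (x axis), with its own y range but at least 4 log2 units in each panel. Filled points were well above background and hollow points were not, and bars give the mean and SD of 3 arrays. The KO points of Mesp2, Snai1 and Lefty2 all lie above the WT points and those of Lefty1 all lie below them.

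In KO cells 2 of the 10 genes rose, Mesp2 and Snai1, and 0 fell. Among all tested probes 2.73% were called higher and 1.11% lower in KO. At an unadjusted p under 0.05, limma had 3 of the genes higher and 1 lower, beside 9.64% and 7.77% of all probes. The KO and WT arrays did not overlap for 3 genes that were higher and 1 that was lower, beside 11.6% and 12.6% of all probes. The median log2FC of the 10 genes was 0.32, against -0.02 over all probes. With 10 genes, these shares rest on single genes, which are described next. In these bulk samples more cells of a type and more RNA per cell cannot be told apart.

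In I53A cells 0 of the 10 genes were called, beside 0.235% of all probes called higher and 0.0928% lower. By limma 1 gene, Mesp2, was higher and 0 were lower before adjustment (p under 0.05), beside 5.37% and 3.83% of all probes, and it was also the 1 gene whose arrays did not overlap, beside 8.09% higher and 9.37% lower. The direct comparison of KO with I53A called 0 genes, beside 0.958% of all probes higher and 0.368% lower. There 2 genes, Lefty2 and Snai1, were higher and 1, Lefty1, was lower before adjustment, beside 6.32% and 5.03% of all probes. KO and I53A arrays did not overlap for 1 higher gene (Snai1) and 1 lower gene (Lefty1), beside 7.61% and 7.45% of all probes. The KO and I53A comparisons with WT share the WT arrays, and only this direct comparison tests whether the mutants differ.

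**Figure D2:**
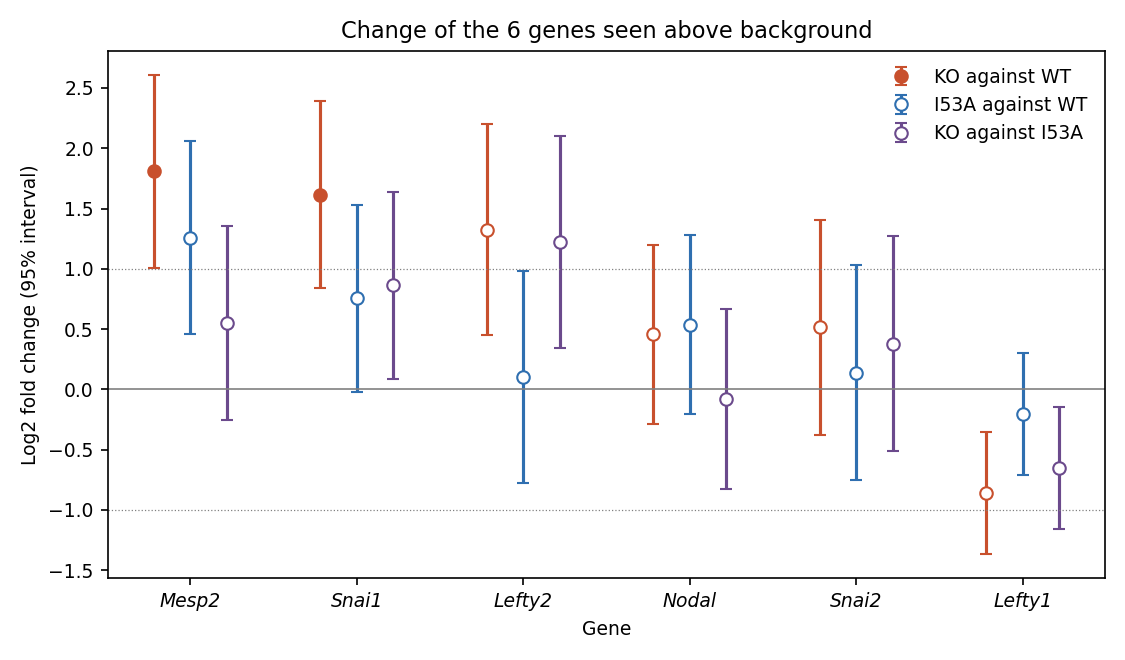
Log2 fold change (y axis) with its 95% confidence interval for the 6 genes above background on 3 or more arrays (x axis) in 3 comparisons. Filled points passed both thresholds (Mesp2 and Snai1 in KO against WT), hollow points did not, dotted lines mark a 2-fold change, and the WT signal of Snai1 was at background.

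Nodal, the ligand, was strongly detected in every sample and was not called in any comparison. Its log2 signal was 11.05, 11.22 and 10.49 on the WT arrays, 10.70, 11.72 and 11.70 on the KO arrays and 11.82, 11.21 and 11.34 on the I53A arrays. The 3 groups overlapped, with KO 1 among the WT values. The log2FC was 0.46 in KO (SE 0.33, 95% interval -0.29 to 1.20, limma adjusted p = 0.542) and 0.54 in I53A (-0.21 to 1.28, adjusted p = 0.677). These intervals allow a rise of up to 1.20 log2 units in KO and 1.28 in I53A.

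The inhibitor genes Lefty1 and Lefty2 stood on opposite sides of WT in KO cells, though neither was called. Lefty1 was at 12.23, 12.18 and 12.62 in WT, 11.46, 11.42 and 11.58 in KO and 12.21, 11.86 and 12.35 in I53A (log2 signal). All KO arrays were below all WT and all I53A arrays, while WT and I53A overlapped. Its log2FC in KO was -0.86 (SE 0.23, 95% interval -1.37 to -0.35, limma adjusted p = 0.0678), which is under 2-fold. In I53A it was -0.21 (adjusted p = 0.834), and KO against I53A gave -0.65 (-1.16 to -0.15, adjusted p = 0.272).

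Lefty2 was at 9.68, 9.51 and 9.53 in WT, 10.06, 10.88 and 11.76 in KO and 10.18, 9.40 and 9.45 in I53A (log2 signal). All KO arrays were above all WT arrays, with a wide spread among them, and I53A 1 lay above KO 1. The log2FC in KO was 1.33 (SE 0.39, 95% interval 0.45 to 2.20, limma adjusted p = 0.100), a ratio of 2.51. In I53A it was 0.10 (-0.77 to 0.98, adjusted p = 0.965), and KO against I53A gave 1.22 (0.35 to 2.10, adjusted p = 0.229). The gene passed the thresholds in KO when only the 15579 probes well above background on all 3 arrays of a group were tested (adjusted p = 0.0410) and when KO 1 was left out (log2FC 1.74, adjusted p = 0.0292). Without KO 3 the log2FC was 0.89. KO 1 was the KO array on slide 2, where the difference from WT was 0.52 against 1.73 on slide 1, and 1 array per group on slide 2 allows no test there.

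Because the Lefty genes are neighbours and targets of the same signal, the difference of their log2 signals was taken within each array, a quantity chosen after the values were seen. It was -2.55, -2.67 and -3.08 in WT, -1.40, -0.54 and 0.19 in KO and -2.03, -2.45 and -2.90 in I53A, Lefty2 minus Lefty1. Its level carries the brightness of each probe and is not read, but its change between groups is. All KO arrays lay above all WT and I53A arrays. The mean was 2.19 higher in KO than in WT, 1.88 higher in KO than in I53A and 0.31 higher in I53A than in WT, where the arrays overlapped. No test is given, because the quantity was built from genes already seen to be apart in KO.

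**Figure D3:**
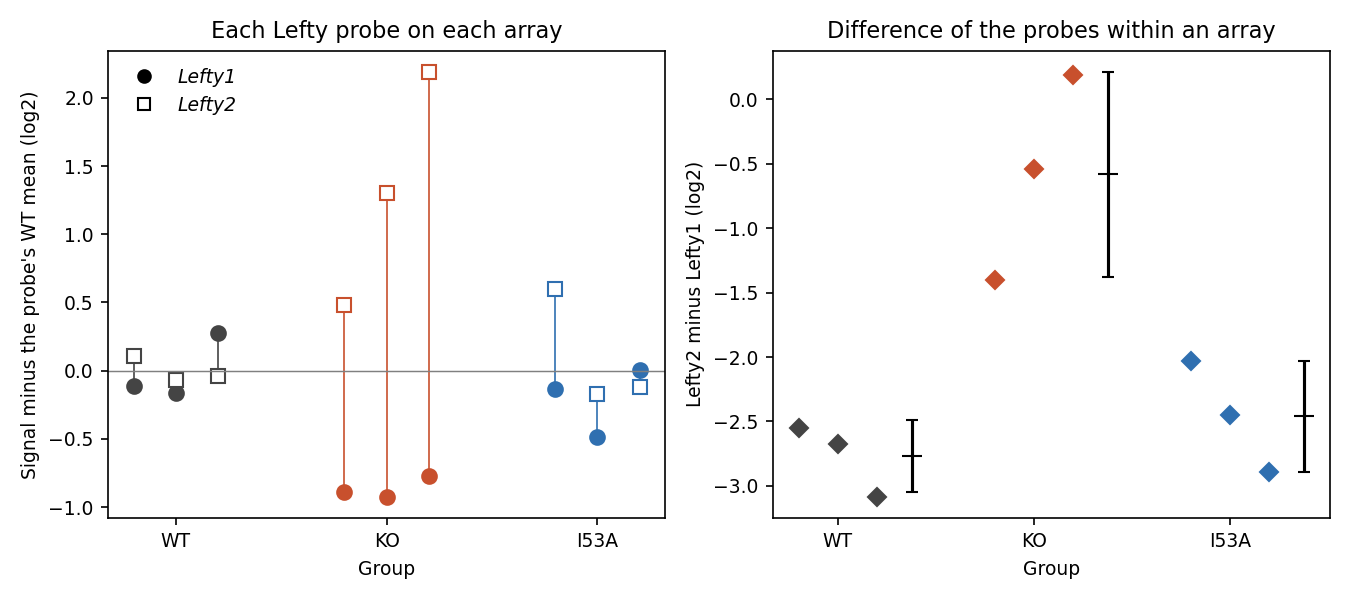
Left, log2 signal of Lefty1 (filled circles) and Lefty2 (hollow squares) on each array as a difference from the WT mean of the same probe (y axis), by group (x axis), a line joining both probes of an array. Right, Lefty2 minus Lefty1 within each array (log2, y axis), with mean and SD of 3 arrays, where the 3 KO values of -1.40, -0.54 and 0.19 lie above all others.

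Mesp2, a gene of the earliest mesoderm and the somites, rose in KO cells. Its log2 signal was 5.32, 5.82 and 5.30 in WT, 7.57, 6.78 and 7.52 in KO and 5.97, 7.10 and 7.15 in I53A, with every array above background. KO and I53A arrays all lay above the WT arrays and overlapped each other, and I53A 1 was the lowest of the mutants. The rise in KO was 3.50-fold (log2FC 1.81, SE 0.36, 95% interval 1.01 to 2.61, limma adjusted p = 0.0214). In I53A the log2FC was 1.26 (SE 0.36, 0.46 to 2.06, adjusted p = 0.256), a ratio of 2.39 that was not called. KO against I53A gave 0.55 (-0.25 to 1.35, adjusted p = 0.653), so no difference between the mutants was resolved and one of up to 1.35 log2 units is allowed. The KO call was lost, at adjusted p = 0.0796 without WT 1, 0.0852 without WT 3, 0.0678 without KO 1 and 0.0799 without KO 3, while the log2FC stayed between 1.67 and 2.02 over all 9 removals of 1 array. Within slides the KO difference was 1.58 on slide 1 and 2.27 on slide 2.

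Mesp1, next to Mesp2, was not well above background on any array, with log2 signals of 1.88 to 2.98. No fold is given for it, and a level under the limit of the arrays cannot be told from absence of the transcript.

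Snai1, a zinc finger repressor of the epithelial state, rose from background in KO cells. Its log2 signal was 4.16, 3.23 and 4.47 in WT, 5.60, 5.28 and 5.84 in KO and 5.15, 4.61 and 4.37 in I53A. It was well above background on 0 WT arrays, on KO 1 and KO 3, and on I53A 1. All KO arrays lay above all WT and I53A arrays, and I53A overlapped WT. The fitted log2FC in KO was 1.62 (SE 0.35, 95% interval 0.84 to 2.39, limma adjusted p = 0.0293). A floored ratio of KO over WT was also taken and was 2.68. For it each WT array was set at the higher of its own signal and the lowest signal well above background on that array. A floored ratio leaves out the spread among arrays, so that it is not a lower limit of the change. In I53A the fitted log2FC was 0.75 (95% interval -0.02 to 1.53, adjusted p = 0.557), and KO against I53A gave 0.86 (0.09 to 1.64, adjusted p = 0.366). The gene is not among the probes well above background on all 3 arrays of a group, so that this filter leaves it untested. The call in KO was lost at adjusted p = 0.0714 without WT 1, 0.0862 without WT 2, 0.0734 without KO 1, 0.0529 without KO 2 and 0.107 without KO 3. With a normexp background correction, which adds an offset of 50 to the intensities, Snai1 had a fitted log2FC of 0.34 (adjusted p = 0.264). Mesp2 had 0.97 (limma adjusted p = 0.0061), which is under 2-fold, and neither gene was called.

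Snai2, the related repressor, was at 5.68, 5.00 and 4.52 in WT, 4.80, 6.35 and 5.60 in KO and 5.34, 5.19 and 5.08 in I53A (log2 signal). The groups overlapped, and the gene was above background on 1 WT, 1 KO and 3 I53A arrays. The log2FC was 0.52 in KO (95% interval -0.38 to 1.41, limma adjusted p = 0.568) and 0.14 in I53A (-0.75 to 1.03, adjusted p = 0.953).

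The remaining regulators of the streak were at or near background. T, brachyury, was at 3.76, 3.62 and 3.75 in WT, 4.75, 2.94 and 4.01 in KO and 4.30, 3.30 and 4.09 in I53A (log2 signal). KO 1, the 1 array with T above background, was the highest of the 9 and KO 2 the lowest, and limma called no difference (adjusted p = 0.880 in KO and 0.936 in I53A). Tbx6 on its brighter probe was also above background on KO 1 alone, with signals of 2.99 to 4.88 over the 9 arrays (adjusted p = 0.383 in KO and 0.648 in I53A). Its other probe was at background on all 9 arrays (2.33 to 5.23), as was Mixl1, a homeobox gene of the streak (1.99 to 2.81). KO 1 was thus the array with most of the 10 genes above background, 7 of 10, against 4 to 5 on WT arrays and 5 to 6 on I53A arrays.

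Some markers of other cell types differed in KO, in both directions. All KO calls of these markers stand beside 2.73% of all probes called higher and 1.11% called lower. In KO cells 4 of 8 primitive endoderm markers were called higher and 0 lower. The 4 were Gata4 (floored ratio 1.81), Gata6 (log2FC 2.09), Sox17 (floored ratio 2.17) and Col4a1 (log2FC 2.62). The mean log2 signal over the 8 was 4.13 to 4.42 on the WT arrays, 5.18 to 5.88 on the KO arrays and 4.37 to 4.55 on the I53A arrays, and Sox7, Dab2 and Pdgfra were at background on all 9. Of 6 definitive endoderm markers 1, the shared Sox17, was called higher in KO, the mean was 3.68 to 4.14 in WT, 4.20 to 4.64 in KO and 3.70 to 4.15 in I53A, and Foxa2, Cer1 and Gsc were at background on all 9. In KO 2 of 7 neural markers (Nes and Zic1) and 2 of 8 trophoblast markers (Ascl2 and Eomes, the latter also a streak gene) were called higher. Before adjustment 2 trophoblast markers were higher and 2 lower (9.64% and 7.77% of all probes), with a median log2FC of 0.07. Tfap2c (mean log2 signal 7.38 in WT and 6.50 in KO) and Hand1 (6.31 and 5.55) lay lower in KO. Of 9 fibroblast markers Thy1 was called higher and Acta2 lower, with 1 higher and 4 lower before adjustment and a median of -0.30. In I53A the 1 marker of these lists called was Nes, called higher, beside 0.235% of all probes called higher and 0.0928% lower. In KO against I53A Gata6, Col4a1 and Lama1 of the 8 primitive endoderm markers were called higher, beside 0.958% of all probes. The part of such cells in the KO values of Mesp2, Snai1 and Lefty2 was not tested. Of the 11 stem cell markers Sox2 was called lower in KO (log2FC -1.03, limma adjusted p = 0.0425) and 0 were called higher. Before adjustment 4 were higher and 2 lower, beside 9.64% and 7.77% of all probes, with a median log2FC of -0.06. In I53A 0 were called, with 0 higher and 2 lower before adjustment, beside 5.37% and 3.83% of all probes, and a median of -0.04.

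The genes whose profile over the 9 arrays was nearest to that of Mesp2, by the root mean square difference of their deviations from the WT mean, were Papss2 (0.27 log2 units), Sct (0.28) and Nptx2 (0.28), of 11368 candidate genes. Papss2 encodes an enzyme that makes the sulfate donor PAPS, Sct the hormone secretin and Nptx2 a neuronal pentraxin. All 3 were called higher in KO (log2FC 1.76, 1.88 and 1.57) and not in I53A (log2FC 1.57, 1.22 and 1.13). Nearest to Snai1, of 11369 candidates, were Ripk3 (0.31), a kinase of necroptosis, Gstm5 (0.35), a glutathione transferase, and Ccdc65 (0.39), a gene of motile cilia, again each called higher in KO (log2FC 1.41, 1.62 and 1.52) and not in I53A (0.75, 0.84 and 0.44). These genes were chosen for this likeness over 9 arrays, so that their values are a description.

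Other genes of the pathway were taken from 3 lists, chosen by their role. Of 24 genes of NODAL signalling 23 had a probe, and in KO 1 was called higher and 1 lower, beside 2.73% and 1.11% of all probes, with a median log2FC of -0.10. In I53A 0 were called, beside 0.235% and 0.0928% of all probes, and the median was 0.01. In KO against I53A 0 were called, beside 0.958% and 0.368%, and the median was -0.32. Before adjustment (p under 0.05) limma had 2 genes higher and 2 lower in KO, where the shares of all probes were 9.64% and 7.77%. It had 2 higher and 1 lower in I53A (5.37% and 3.83% of all probes), and 2 higher and 3 lower in KO against I53A (6.32% and 5.03%).

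Pcsk6, which encodes a proprotein convertase able to cleave the NODAL precursor, rose 3.52-fold in KO (log2FC 1.82, SE 0.43, limma adjusted p = 0.0444). Its log2 signal was 6.49, 5.73 and 5.29 in WT, 6.81, 8.24 and 7.90 in KO and 6.23, 7.16 and 6.48 in I53A, so that all KO arrays lay above WT while I53A overlapped both. This call was lost in 7 of 9 removals of 1 array (WT 2, WT 3, KO 2, KO 3 or any I53A array, adjusted p = 0.0506 to 0.155). It was also lost with normexp (log2FC 0.88, limma adjusted p = 0.313), on slide 1 alone (0.104) and with replicate number as a block (0.0789).

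Cfc1, the co-receptor related to CRIPTO, fell to background in KO. It was at 5.44, 5.46 and 6.18 in WT, where 2 of 3 arrays were above background, 3.41, 3.48 and 2.58 in KO and 4.35, 3.73 and 4.54 in I53A (log2 signal), both mutants being at background on all their arrays. The fitted log2FC in KO was -2.54 (limma adjusted p = 0.00250), and the ratio of WT over KO, with the KO arrays floored, was 3.68. This call held in all 9 removals of 1 array. With normexp the log2FC was -0.60 (adjusted p = 0.00795), which is under 2-fold and was not called. For I53A the fitted log2FC was -1.48 (adjusted p = 0.136).

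The 3 brightest genes of the list were not called in KO or I53A. Tdgf1, which encodes CRIPTO, had a log2FC of 0.95 in KO (limma adjusted p = 0.114) and 0.59 in I53A, the latter from 2 arrays because its spot was flagged as an outlier on I53A 3. Acvr2b, an activin receptor, had -1.06 in KO (adjusted p = 0.114) and -0.24 in I53A, and Drap1, a corepressor that binds FOXH1, had -0.45 and -0.17. All KO arrays of Tdgf1 lay above all WT arrays, and those of Acvr2b and Drap1 below them.

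Of 41 further streak and mesoderm genes 39 had a probe, 13 of them at background on all 9 arrays. In KO 4 were called higher and 1 lower, beside 2.73% and 1.11% of all probes, with a median log2FC of 0.03. In I53A 3 were called higher and 0 lower, beside 0.235% and 0.0928%, with a median of 0.02. KO against I53A gave 0 calls (0.958% and 0.368% of all probes, median 0.08). Before adjustment limma had 9 higher and 5 lower in KO, beside 9.64% and 7.77% of all probes. It had 7 higher and 3 lower in I53A (5.37% and 3.83%), and 2 higher and 5 lower in KO against I53A (6.32% and 5.03%).

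**Figure D4:**
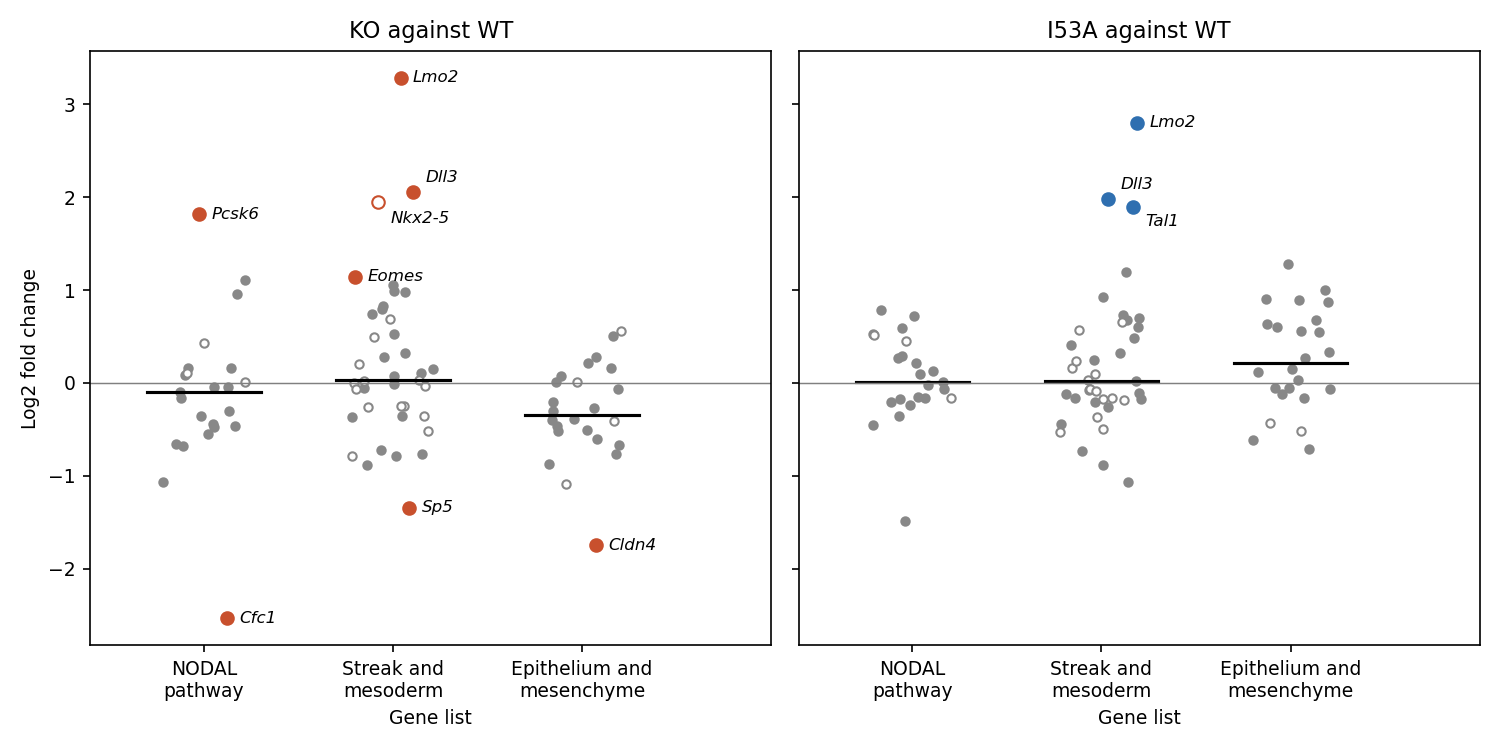
Log2 fold change (y axis) in KO (left) and I53A (right) against WT of 23 NODAL pathway genes, 39 streak and mesoderm genes and 24 genes of the epithelial and mesenchymal states (x axis), 1 point per gene. Coloured points with names were called, hollow points were at background in both groups and their value is no fold change, the fitted values of Lmo2 and of Cfc1 have 1 group at background, and black lines are medians (-0.10, 0.03 and -0.34 in KO).

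Dll3, a Notch pathway ligand of the presomitic mesoderm where Mesp2 also acts, rose in both mutants. It was at 6.12, 6.74 and 5.88 in WT, 8.40, 8.30 and 8.22 in KO and 7.78, 8.58 and 8.32 in I53A (log2 signal), with no mutant array near WT. The rise was 4.16-fold in KO (log2FC 2.06, SE 0.29, limma adjusted p = 0.00320) and 3.94-fold in I53A (log2FC 1.98, adjusted p = 0.0227), and KO against I53A gave 0.08 (95% interval -0.56 to 0.72). The I53A call was lost without WT 1, WT 3, I53A 2 or I53A 3 (adjusted p = 0.100 to 0.112), and at the 75th percentile scaling (adjusted p = 0.0509). Other presomitic and somite genes of the list did not share this rise as a set, and none of those named here was called. Ripply1 lay lower in both mutants (mean log2 signal 7.76 in WT, 6.97 in KO and 7.03 in I53A). Ripply2 lay higher (4.20, 5.19 and 4.90) but was above background on 2 arrays only. The groups overlapped for Dll1, and Msgn1, Lfng and Meox1 were at background on all 9 arrays.

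Of the blood and endothelial genes of the list, Lmo2 rose in both mutants and Tal1 in I53A, while Kdr, Aplnr and Etv2 were not called. Kdr had mean log2 signals of 7.26 in WT, 7.34 in KO and 7.10 in I53A. Aplnr had 5.73, 5.38 and 5.61, and Etv2 had 8.04, 8.19 and 8.29. Lmo2 was at background in WT (2.31, 2.05 and 2.74) and at 5.41, 5.74 and 5.81 in KO and 4.63, 5.01 and 5.85 in I53A (log2 signal), I53A 2 being not well above background. The fitted log2FC of Lmo2 was 3.29 in KO (limma adjusted p = 0.000498) and 2.80 in I53A (adjusted p = 0.00884, 0.0529 without WT 1 and 0.0501 without I53A 2). With the WT arrays floored, the ratio was 3.93 in KO and 2.80 in I53A. With normexp the log2FC was 0.90 in KO, under 2-fold, and 0.50 in I53A (adjusted p = 0.420), and neither was called. The I53A call was also lost on slide 1 alone (adjusted p = 0.142). Tal1 was at 5.66, 5.55 and 5.69 in WT, 6.78, 6.24 and 6.37 in KO and 7.10, 7.73 and 7.76 in I53A. All its mutant arrays lay above WT and the I53A arrays lay highest.

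Tal1 was called in I53A (3.72-fold, log2FC 1.90, limma adjusted p = 0.0165) and not in KO (log2FC 0.83, adjusted p = 0.111), and KO against I53A gave -1.07 (95% interval -1.63 to -0.51, adjusted p = 0.0850), a difference that was not called. The Tal1 call in I53A was lost without any 1 WT array, I53A 2 or I53A 3 (limma adjusted p = 0.0746 to 0.0859). It was also lost with normexp (log2FC 1.14, adjusted p = 0.124), on slide 1 alone (0.295) and with replicate number as a block (0.0824). KO against I53A passed the thresholds in 1 of 8 alternative settings other than removals.

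Eomes, a T-box factor of the streak and of trophoblast, was at 6.08, 6.05 and 6.69 in WT, 7.52, 7.68 and 7.05 in KO and 7.15, 6.95 and 7.49 in I53A (log2 signal). All mutant arrays lay above WT. It rose 2.21-fold in KO (log2FC 1.14, limma adjusted p = 0.0458) and had 0.92 in I53A (adjusted p = 0.277), but the KO call was lost in each of 9 removals of 1 array (adjusted p = 0.0516 to 0.159) and over the mean of all its probes (log2FC 0.67, adjusted p = 0.216). The KO call was also lost with 75th percentile scaling (limma adjusted p = 0.0525), normexp (0.299), slide 1 alone (0.127) and replicate number as a block (0.0976).

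Sp5, a target of WNT signalling, fell 2.54-fold in KO (log2FC -1.35, SE 0.23, limma adjusted p = 0.0103, and 0.0541 without WT 1). It was at 7.04, 6.80 and 6.69 in WT, 5.23, 5.55 and 5.70 in KO and 6.26, 6.26 and 6.67 in I53A (log2 signal), every KO array lying below all others. The Sp5 call was also lost with normexp (log2FC -0.73, under 2-fold, limma adjusted p = 0.0170) and on slide 1 alone (0.0887). Nkx2-5, a heart regulator, passed the thresholds in KO (adjusted p = 0.0310) with both groups at background on all arrays, so no fold is given, and the call was lost in 6 of 9 removals (each WT and each KO array, adjusted p = 0.0683 to 0.110). The brightest genes of the list, Tcf15, Bmp4 and Etv2, were not called, Bmp4 standing at log2FC -0.88 in KO and -1.06 in I53A.

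The last list held 24 genes of the epithelial and mesenchymal states, among them targets of SNAI proteins. In KO 0 were called higher and 1 lower, beside 2.73% and 1.11% of all probes, with a median log2FC of -0.34, and before adjustment limma had 0 higher and 5 lower, beside 9.64% and 7.77%. In I53A 0 were called, beside 0.235% and 0.0928% of all probes, and the median was 0.21, with 9 higher and 1 lower before adjustment, beside 5.37% and 3.83%. KO against I53A gave 0 higher and 1 lower, beside 0.958% and 0.368% of all probes, with a median of -0.63, and 1 higher and 10 lower before adjustment, beside 6.32% and 5.03%.

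Cldn4, a claudin of epithelial tight junctions, fell 3.36-fold in KO (log2FC -1.75, SE 0.21, limma adjusted p = 0.00160). It was at 11.63, 11.32 and 11.74 in WT, 9.67, 9.93 and 9.85 in KO and 11.01, 11.04 and 10.79 in I53A (log2 signal), 3 groups without overlap. In I53A the log2FC was -0.62 (adjusted p = 0.386), and KO against I53A gave -1.13 (adjusted p = 0.0330), which was lost in each of 9 removals of 1 array (adjusted p = 0.0506 to 0.126).

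Cdh1, which encodes E-cadherin, the classical target of SNAI1, had a log2FC of -0.61 in KO (limma adjusted p = 0.146) and was named after its value was seen. Of the 3 brightest genes of the list, the keratins Krt18 and Krt8 had -0.76 and -0.66 in KO and 0.12 and 0.55 in I53A, and the adhesion gene Epcam had 0.08 and 0.68, with no call. All KO arrays of both keratins lay below all WT and I53A arrays. The mesenchymal genes Vim (mean log2 signal 9.72 in WT and 9.33 in KO), Cdh2 (8.90 and 8.60) and Fn1 (10.40 and 9.53) were not called. Neither were Mmp14 (7.62 and 7.36) and Zeb2 (5.49 and 4.98), also lower in KO. Twist1 (4.89 and 5.17, at background in WT) and Snai3 (5.12 and 5.62) were higher, with no call.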

How the data were processed

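RNA of 9 mESC samples was labelled with Cy3 and hybridised to 1 array each. The authors scanned the slides and extracted spots with Agilent Feature Extraction 11.5.1.1, and the deposited scan files hold background-subtracted intensity on a linear scale. The deposited series table holds log2 values that the authors averaged over repeated probes and quantile normalised (limma is named in their notes, with build mm10), for probes of 1 Ensembl gene, and was used as an alternative. Its fold changes and p-values of the mutants were not used, and 0 columns of per-sample values were left over.

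In R 4.3.3 with limma 3.58.1, spots flagged as control or outlier were dropped, log2 intensities averaged per probe and quantile normalised over 55681 probes, and the 30170 probes of the series table tested two-sided in a model of group means with 6 residual degrees of freedom. Accession or symbol named 24559 probes directly, and 26929 had a symbol in all, 3241 none. BH adjustment ran over all tested probes. Dim probes gave bounds from the background limit of each array. No fold is given where both groups were at background. The script was tested on simulated data.

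The text names the 10 genes, the genes of 3 lists that were called or among the 3 brightest, and the 3 nearest profiles of each called gene. A few further genes of the lists were named after their values were seen. Genes and lists were chosen with earlier results of these data known. Alternatives were 75th percentile scaling, normexp (offset 50, on the spot median, the spot mean being not used here), the authors' values, dim probes (not above background on all 3 arrays of any group) left out, slide as a block, slide 1 alone, replicate block, probe means and leaving out each array. Promoter windows are from RefSeq. The number of arrays limits the precision.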

Additional observations from a re-analysis of the deposited data

Results flagged for a closer look

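Cldn4 passed the thresholds for a difference between the mutants, but the call was not stable. Its log2 signal was lower in KO than in I53A by a log2FC of -1.13 (limma adjusted p = 0.0330, 3 KO arrays all below 3 I53A arrays), in the direct comparison of KO with I53A. The call was lost in each of 9 removals of 1 array (adjusted p = 0.0506 to 0.126), with 75th percentile scaling (log2FC -0.86, adjusted p = 0.190), with normexp (log2FC -0.92, under 2-fold) and on slide 1 alone (adjusted p = 0.164).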

How the results depend on the processing

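The 2 calls among the 10 genes in KO were both made with 75th percentile scaling, the authors' values, slide as a block and probe means. With dim probes left out (15579 probes, 5 of the 10 genes) the count was also 2, but of Mesp2 and Lefty2, as Snai1 was not tested. There were 0 with normexp and 0 on slide 1 alone (6 arrays), and 0 to 2 when 1 array was left out. In I53A and in KO against I53A the count was 0 under every alternative. For the NODAL list in KO (2 calls) it was 0 with normexp, 1 on slide 1 and 1 to 2 without 1 array. For the streak and mesoderm list it was 1 with normexp, 2 on slide 1 and 2 to 4 without 1 array in KO (5 calls), 0 with normexp, 0 on slide 1 and 0 to 3 without 1 array in I53A (3 calls), and 1 with dim probes left out and 0 to 1 without 1 array in KO against I53A (0 calls). For the epithelial and mesenchymal list it was 2 with normexp and 0 on slide 1 in KO (1 call), and in KO against I53A (1 call) it was 0 with 75th percentile scaling, normexp and slide 1, 3 with dim probes left out and with probe means, and 0 without any 1 array. Over all probes, the 1159 calls in KO, 99 in I53A and 400 in KO against I53A became 326, 46 and 132 with normexp, 332, 2 and 63 on slide 1 alone, 797, 25 and 194 with the replicate block, and 606 to 1131, 22 to 91 and 186 to 311 without 1 array, while in I53A there were 44 with 75th percentile scaling and 266 with dim probes left out. Of 14 called values 10 were lost in some removal of 1 array. Fewer arrays and, with dim probes left out, fewer tests go with these settings, and otherwise the cause was not tested. Replicate numbers did not pair the samples (correlation of same-numbered samples -0.390 to 0.378, 3 of 9 arrays closest to their own number). With the replicate block, calls fell to 1 among the 10 genes (Mesp2 at adjusted p = 0.0545), 1 in the NODAL list in KO, 1 in the streak and mesoderm list in I53A and 0 in the epithelial and mesenchymal list in KO against I53A.

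Only values that were not called changed sign. With normexp the log2FC of T became -0.00319 in KO and 0.00198 in KO against I53A, and that of Tbx6 0.0171 in KO against I53A. On slide 1 it became -0.22 for T in KO, -0.0745 for Snai2 in I53A and 0.20 for Nodal in KO against I53A, where 75th percentile scaling gave 0.18. Probe means gave 0.0492 for Tbx6, -0.39 for Dll3 and -0.10 for Eomes in KO against I53A. Without 1 array the log2FC ranged over -0.22 to 0.66 for T in KO, -0.14 to 0.45 for Snai2 in I53A, -0.15 to 0.24 for Lefty2 in I53A, and in KO against I53A -0.42 to 0.48 for T, -0.38 to 0.42 for Tbx6, -0.00709 to 0.77 for Snai2, -0.26 to 0.25 for Nodal and -0.15 to 0.26 for Dll3.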
